A study of Danio rerio with 9 samples.

Results

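Livers of maternal-zygotic focad null zebrafish were compared with livers of maternal-zygotic pdia6 null zebrafish by RNA sequencing. The comparison used 6 of the 9 libraries of the study, 3 labelled focad null and 3 labelled pdia6 null. The remaining 3 libraries, from wild-type fish of the AB line, were set beside the values only to show which null group lay away from them. A maternal-zygotic null has neither the product laid into the egg by the mother nor a working copy of its own, in every tissue. The pdia6 null and wild-type fish were 3.5 months old. For the focad null fish no age is labelled, and AB is named only for wild type, so differences in age or line cannot be told apart from genotype. Of 33716 genes in the table, 13346 had a mean of at least 0.5 FPKM (fragments per length of gene and size of library) over the 6 libraries and were tested.

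Focadhesin, the focad product, is known in mammals as a partner that stabilises the SKI complex, which threads messenger RNA into the cytoplasmic exosome for degradation. Pdia6 encodes a disulfide isomerase of the endoplasmic reticulum (ER), where it helps secreted proteins to fold and, in mammals, dampens sensors of the unfolded protein response. Hepatocytes secrete most plasma proteins and carry a large ER, so the comparison sets the loss of an RNA decay partner against the loss of a protein folding enzyme in the same organ. Neither the series text nor the labels state a question for this pair of genotypes.

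The libraries held 46.1 to 54.5 M reads each. Whether replicates were taken from different fish is not stated in the labels. The tests therefore rest on library-to-library spread, part or all of which may be technical. The median absolute log2 difference over genes was 0.217 to 0.515 between pairs of focad null libraries, where replicate 2 was the one that stood apart, and 0.267 to 0.308 between pairs of pdia6 null libraries. It was 0.32 to 0.579 between a focad null and a pdia6 null library and 0.25 to 0.313 between wild-type libraries. Summed hepatocyte markers stood at 179100 to 184900 FPKM in focad null, 199200 to 210700 FPKM in pdia6 null and 214200 to 238200 FPKM in wild type, and all 38 markers were detected. Marker by marker, the median log2 difference, focad null minus pdia6 null, was -0.03, with 17 of 38 above 0. That median ran from -0.21 without focad null replicate 3 to 0.14 without pdia6 null replicate 3. Between the null groups 5 markers did not overlap (13.2%, against 24.6% over all genes).

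The targeted transcripts were read before other genes. RNA of focad (ENSDARG00000022020) was measured at 0.276, 0.528 and 0.240 FPKM in focad null, against 1.21, 0.933 and 1.09 FPKM in pdia6 null and 1.14, 0.521 and 1.03 FPKM in wild type. The null groups did not overlap, and the difference had an exact two-sided permutation p of 0.1, the smallest that 3 libraries against 3 allow. The library labelled focad null replicate 2 lay just above the lowest wild-type library. Pdia6 (ENSDARG00000009001) stood at 26.4, 25.98 and 17.8 FPKM in focad null, against 44.3, 0.902 and 0.913 FPKM in pdia6 null and 265, 14.2 and 56.4 FPKM in wild type. The library labelled pdia6 null replicate 1 thus held pdia6 RNA within the wild-type range, above all 3 focad null libraries, and the exact permutation p was 0.8. By transcript level these 2 libraries lay inside the wild-type range of the gene named in their label. A null allele can leave its RNA in place. Summed ER chaperones and folding factors, at 15190, 2570 and 3623 FPKM in pdia6 null, were also highest in replicate 1. In wild type they were 5928, 2423 and 2908 FPKM, again highest in the library with most pdia6 RNA. Whether pdia6 RNA follows that level was not tested. Focad null replicate 2 and pdia6 null replicate 1 were kept under the group names of their labels. Counts of calls are given with and without both, and many other results with 1 library left out at a time.

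The comparison called 130 of the 13346 genes (0.974%) at an adjusted p below 0.05 in limma's moderated test with Benjamini-Hochberg adjustment. Of these, 63 (0.472% of genes tested) were higher and 67 (0.502%) were lower in focad null than in pdia6 null. The libraries of the 2 null groups did not overlap for any called gene, against 3282 genes (24.6%) among all tested. At an unadjusted p below 0.05, 2065 genes passed. The absolute log2 difference of called genes was at least 1.04, with a median of 2.34, while the median difference over all genes tested was 0.02. Of the called genes, 75 (57.7%) averaged below 0.5 FPKM in exactly 1 of the null groups, against 12.9% of all genes tested. Genes near absence in a group pass the filter on level only through the other, so that share is a description of the genes and not a test.

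The number of calls turned on single libraries. It was 27 without focad null replicate 1, 160 without replicate 2 and 215 without replicate 3. It was 33 without pdia6 null replicate 1, 37 without replicate 2 and 50 without replicate 3. Without focad null replicate 2 and pdia6 null replicate 1, 53 genes passed, 34 of them among the 130. In all, 19 of the 130 genes passed whichever library was left out, and 12 of these have a gene symbol. They are cbln5, mia, hbe1, ndufa4l2, mfap4, chsy3, tlr18, dnajc16 and msrab, higher in focad null, and igflr1, sat2a.2 and ccl39a.10, lower in focad null.

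**Figure D1:**
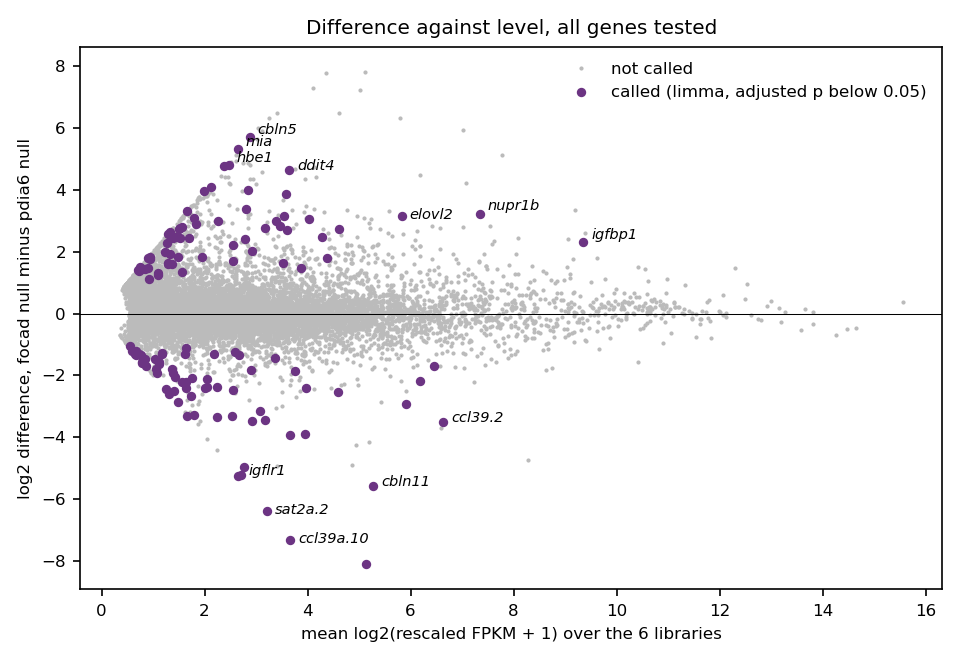
The log2 difference of each tested gene, focad null minus pdia6 null (vertical axis), against its mean log2(rescaled FPKM + 1) over the 6 libraries (horizontal axis). The 130 called genes (purple) lie at absolute differences of 1.04 and more, at low as well as high mean levels.

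Among the genes higher in focad null, 3 secreted or oxygen-binding proteins were at or near 0 in every pdia6 null library. Cbln5 (ENSDARG00000053802), a secreted protein of the cerebellin family, stood at 71.5, 28.4 and 70.18 FPKM in focad null, against 0.0303, 0 and 0 FPKM in pdia6 null and 107, 102 and 54.9 FPKM in wild type. Focad null replicates 1 and 3 lay inside the wild-type range, replicate 2 lay below it and pdia6 null held 1 read in all, a log2 difference of 5.72 (SE 0.38, limma adjusted p = 0.00257). Mia (ENSDARG00000052437), a small secreted protein first known from melanoma and cartilage, stood at 36.2, 62.3 and 25.4 FPKM in focad null, against no read in pdia6 null and 29.3, 3.82 and 0.572 FPKM in wild type. Against a floor of 3 reads over the pdia6 null group it was at least 1020-fold higher in focad null (adjusted p = 0.00232), and wild type spread across the gap. Hbe1 (ENSDARG00000097238), an embryonic-type globin whose symbol is shared by 7 gene IDs, stood at 30.3, 28.8 and 26.7 FPKM in focad null, against 0.0315, 0.0913 and 0.0335 FPKM in pdia6 null and 0, 0 and 0.138 FPKM in wild type. The gene lay apart in focad null alone, with a log2 difference from pdia6 null of 4.81 (SE 0.17, adjusted p = 0.000203). Because copies of the globin genes can share reads, its level is uncertain. It was the 1 called among 15 erythroid and globin genes tested (6.67%, against 0.974% over all genes). Of the 15, 11 lay below 0, with a median of -0.37. Between the null groups 8 did not overlap (53.3%, against 24.6% over all genes), 2 higher and 6 lower in focad null. The calls of cbln5, mia and hbe1 held whichever library was left out. With voom on the recovered reads cbln5 (adjusted p = 0.113) and mia (0.104) were not called.

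Ndufa4l2, ddit4 and nupr1b were also called higher in focad null. Ndufa4l2, a hypoxia-induced relative of a respiratory chain subunit, stood at 24.5, 32.2 and 27.5 FPKM in focad null, against 1.504, 0.4998 and 0.551 FPKM in pdia6 null and 0.477, 15.3 and 11.12 FPKM in wild type. It lay above wild type in every focad null library, and its log2 difference of 4.01 (SE 0.27, adjusted p = 0.00257) held whichever library was left out. Ddit4, a stress-induced inhibitor of the growth kinase TOR, stood at 80.2, 70.24 and 41.1 FPKM in focad null, against 1.47, 0.332 and 3.81 FPKM in pdia6 null and 8.82, 1.52 and 8.38 FPKM in wild type. Focad null exceeded both other groups in every library, with a log2 difference from pdia6 null of 4.64 (SE 0.51, adjusted p = 0.0240). Nupr1b, a stress-induced chromatin protein, stood at 508, 459 and 537 FPKM in focad null, against 72.4, 56.4 and 34.7 FPKM in pdia6 null and 141, 88.8 and 75.9 FPKM in wild type. The wild-type libraries lay between the nulls, so both groups were outside the wild-type range on opposite sides (log2 difference 3.24, SE 0.33, adjusted p = 0.0169). The ddit4 call was lost without focad null replicate 1, pdia6 null replicate 1 or pdia6 null replicate 2 (adjusted p from 0.0517 to 0.116). The nupr1b call was lost without focad null replicate 1 or pdia6 null replicate 2 (adjusted p 0.0633 to 0.108).

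Ddit4 and nupr1b were the 2 called members of the integrated stress response list among 42 tested, against 0.974% called over all genes. No member was called lower, 27 of 42 members lay above 0 and 15 below, and the list median was 0.26, against 0.02 over all genes. The summed level of the list was 2050, 2071 and 2202 FPKM in focad null, 1238, 1225 and 1357 FPKM in pdia6 null and 1346, 1374 and 1529 FPKM in wild type. Within that sum nupr1b alone averaged 501 FPKM in focad null and 54.5 FPKM in pdia6 null. By the median of centred log2 values the libraries stood at -0.01, 0.03 and 0.35 in focad null, -0.07, -0.17 and 0.09 in pdia6 null and -0.08, -0.24 and -0.15 in wild type, so the null groups overlapped. The list median was 0.05 without focad null replicate 3. Of 17 hypoxia response genes tested, ddit4 was the 1 called (5.88%, against 0.974% over all genes), and that list's median was 0.13.

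Igfbp1 was called higher in focad null, and pck1 was not called. Igfbp1, a secreted binder of insulin-like growth factors that insulin represses in liver, stood at 1454, 1439 and 1501 FPKM in focad null, against 403, 219 and 279 FPKM in pdia6 null and 656, 982 and 2690 FPKM in wild type. Focad null was tight and lay inside the wide wild-type range, while pdia6 null lay below it (log2 difference 2.33, SE 0.31, adjusted p = 0.0327). Pck1, the rate-limiting enzyme of gluconeogenesis, stood at 1128, 1205 and 1567 FPKM in focad null, against 15.7, 20.4 and 142 FPKM in pdia6 null and 49.5, 750 and 1624 FPKM in wild type. Its log2 difference of 5.12 missed the threshold (adjusted p = 0.0529), and the wild-type libraries ran across the range of both nulls. The igfbp1 call was lost without focad null replicate 1 or 3, or pdia6 null replicate 2 or 3 (adjusted p 0.0574 to 0.154). Of 47 fasting and insulin genes tested, 2 were called (4.26%, against 0.974% over all genes), both higher in focad null, namely igfbp1 and ddit4. The list median was 0.31 with all libraries and 0.02 without pdia6 null replicate 1.

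Btg2 and egr2a, called members of the immediate early list, encode an antiproliferative protein that p53 induces and a zinc-finger transcription factor. Btg2 stood at 31.4, 27.4 and 11.57 FPKM in focad null, against 1.21, 0.312 and 2.46 FPKM in pdia6 null and 1.68, 1.37 and 10.6 FPKM in wild type (log2 difference 3.39, SE 0.49, adjusted p = 0.0410). Egr2a stood at 6.95, 18.04 and 14.9 FPKM in focad null, against 0.750, 0.343 and 1.07 FPKM in pdia6 null and 2.22, 1.45 and 96.8 FPKM in wild type (log2 difference 2.98, adjusted p = 0.0284). Every focad null library lay above the highest wild-type library in btg2. The wild-type spread in egr2a was far wider than that of either null, since replicate 3 alone was high. Of 38 immediate early genes tested, btg2 and egr2a were the 2 called (5.26%, against 0.974% over all genes). Of the 38, 14 (36.8%) had non-overlapping libraries, all higher in focad null, against 24.6% in either direction over all genes. The list median was 0.62, and 0.41 without focad null replicate 2. The btg2 call was lost without any 1 of focad null replicates 1 and 2 and the 3 pdia6 null libraries (adjusted p 0.0763 to 0.168). The egr2a call was lost without any 1 of the 3 pdia6 null libraries (0.0835 to 0.111).

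Elovl2, suox and cyp8b1 were called higher in focad null. Elovl2, an elongase of very long polyunsaturated fatty acids, stood at 219, 96.6 and 228 FPKM in focad null, against 12.7, 24.2 and 19.1 FPKM in pdia6 null and 64.6, 105 and 54.5 FPKM in wild type (log2 difference 3.16, SE 0.43, adjusted p = 0.0337). Suox, the mitochondrial sulfite oxidase, stood at 39.3, 16.5 and 35.8 FPKM in focad null, against 2.83, 2.19 and 3.103 FPKM in pdia6 null and 39.02, 51.6 and 60.6 FPKM in wild type (log2 difference 3.01, adjusted p = 0.0252). In both genes the pdia6 null libraries lay below every wild-type library, and focad null replicate 2 was the lowest of its group. Cyp8b1 (ENSDARG00000097559), a sterol hydroxylase of bile acid synthesis whose symbol is shared by 3 gene IDs, stood at 2.53, 1.86 and 1.98 FPKM in focad null, against 0.0805, 0.0680 and 0.214 FPKM in pdia6 null and 0.0773, 0.154 and 0.110 FPKM in wild type. Here focad null alone lay apart from wild type (log2 difference 1.47, adjusted p = 0.0240). Without any 1 of focad null replicate 1 and the 3 pdia6 null libraries, suox and cyp8b1 were not called (adjusted p 0.0843 to 0.116 for suox and 0.0765 to 0.131 for cyp8b1). Elovl2 was not called without those libraries or without focad null replicate 3 (0.0514 to 0.146).

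Tlr18 and mfap4 were called higher in focad null. Tlr18, a Toll-like receptor of fish, stood at 8.98, 6.27 and 5.45 FPKM in focad null, against 0.114, 0.0366 and 0.202 FPKM in pdia6 null and 0.120, 0.115 and 0.510 FPKM in wild type. Mfap4 (ENSDARG00000088745), a matrix-associated protein used in zebrafish as a macrophage marker and with a symbol shared by 8 gene IDs, stood at 7.42, 10.1 and 9.001 FPKM in focad null, against 0.590, 0.244 and 0.112 FPKM in pdia6 null and 0.948, 1.098 and 1.69 FPKM in wild type. Both calls held whichever library was left out, with log2 differences of 2.80 (SE 0.22, adjusted p = 0.00575) for tlr18 and 2.91 (SE 0.22, adjusted p = 0.00446) for mfap4. Without both focad null replicate 2 and pdia6 null replicate 1 tlr18 was not called (adjusted p = 0.0572), and with voom mfap4 was not (0.0668). Of 28 macrophage and Kupffer cell genes tested, mfap4 was the 1 called (3.57%, against 0.974% over all genes). Between the null groups 8 of the 28 did not overlap (28.6%, against 24.6% over all genes), 5 higher and 3 lower in focad null. The list summed to 664, 2000 and 568 FPKM in focad null, 929, 631 and 776 FPKM in pdia6 null and 875, 843 and 591 FPKM in wild type. On this sum focad null replicate 2 stood apart from the other libraries, and the list median was 0.47 with all libraries and 0.11 without that library. In bulk liver, more cells of a type and more RNA per cell cannot be told apart.

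Interferon genes were the list with the highest share of non-overlapping members among those on stress and immunity described here. Of 43 tested, 23 did not overlap and were higher in focad null, and 2 did not overlap and were lower, or 58.1% in all, against 24.6% over all genes. The list median was 0.96, with 41 of 43 members above 0, and 1 gene was called (2.33%, against 0.974% over all genes). That gene, pkz, a fish kinase that binds Z-form nucleic acid and phosphorylates a translation factor, stood at 3.05, 4.36 and 3.31 FPKM in focad null, against 0.648, 0.371 and 0.447 FPKM in pdia6 null and 1.38, 21.3 and 3.22 FPKM in wild type (log2 difference 1.61, adjusted p = 0.0261). The summed list stood at 950, 2873 and 681 FPKM in focad null, 461, 502 and 560 FPKM in pdia6 null and 431, 1577 and 658 FPKM in wild type. Focad null replicate 2 and wild-type replicate 2 were the 2 high libraries, and without focad null replicate 2 the median was 0.54. The pkz call was lost without any 1 of focad null replicate 1 and the 3 pdia6 null libraries (adjusted p 0.0944 to 0.119).

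A run of neighbouring interferon-inducible genes, ifi27.2, ifi27.3 and ifi27.6 on chromosome 13, was called higher in focad null. Ifi27.2 stood at 30.3, 84.0 and 35.3 FPKM in focad null, against 0.657, 1.95 and 5.37 FPKM in pdia6 null and 2.52, 93.5 and 12.1 FPKM in wild type (log2 difference 3.87, SE 0.59, adjusted p = 0.0482). Ifi27.3 stood at 5.96, 19.5 and 6.27 FPKM in focad null, against 0, 0.0860 and 0.505 FPKM in pdia6 null and 0.0326, 11.97 and 0.814 FPKM in wild type. Wild-type replicate 2 was the high one of its group, and neither null group lay wholly outside the wild-type range in these 2 genes. Ifi27.6 stood at 10.9, 14.6 and 20.5 FPKM in focad null, against 1.37, 1.405 and 3.69 FPKM in pdia6 null and 4.66, 78.3 and 22.4 FPKM in wild type, with pdia6 null below wild type (log2 difference 2.41, adjusted p = 0.0447). The calls of ifi27.2 and ifi27.6 were lost whichever of the 6 libraries was left out (adjusted p 0.0552 to 0.158 for ifi27.2 and 0.0585 to 0.147 for ifi27.6). Nor was ifi27.3 (log2 difference 3.103, adjusted p = 0.0421) called without focad null replicate 1 or any 1 pdia6 null library (0.109 to 0.150). Members of the ifi27, ccl39, cyp2x, cyp46a1, sat2a, crp and cerebellin gene families are multicopy, so reads may be split among copies and these levels are uncertain.

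**Figure D2:**
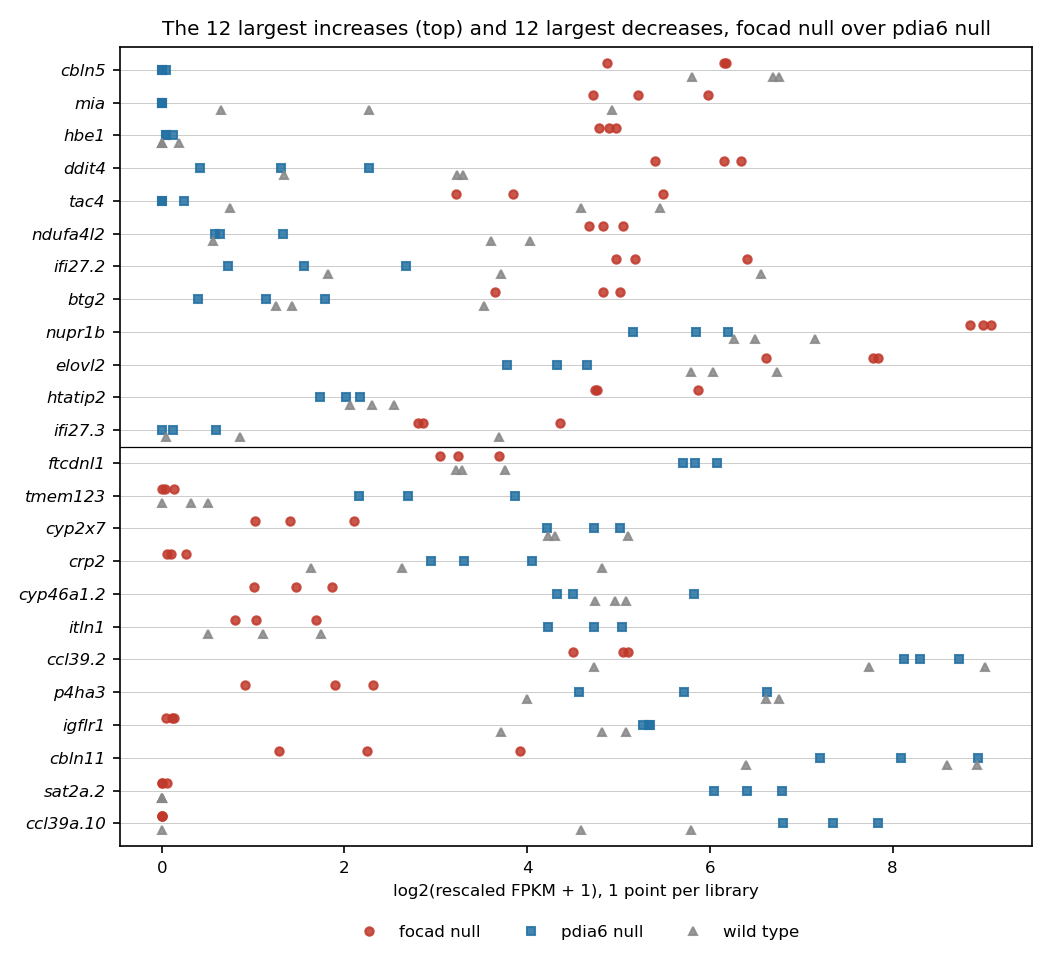
Log2(rescaled FPKM + 1) in each library (horizontal axis) for the 12 largest increases and, below the line, the 12 largest decreases in focad null over pdia6 null among called genes with a symbol. Red circles are focad null, blue squares pdia6 null and grey triangles wild type. The null groups do not overlap in any gene shown, while wild type falls with either null, between them or across both.

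The largest decreases in focad null included 2 chemokines. Ccl39a.10 (ENSDARG00000096060) had no read in focad null, against 162, 228 and 111 FPKM in pdia6 null and 0, 54.5 and 23.1 FPKM in wild type. The pdia6 null libraries exceeded every wild-type library, and the gene was at least 1777-fold lower in focad null against the same floor of 3 reads over the group (adjusted p = 0.000227). Ccl39.2 stood at 32.1, 33.3 and 21.6 FPKM in focad null, against 279, 422 and 313 FPKM in pdia6 null and 515, 213 and 25.5 FPKM in wild type. Its wild-type libraries spread over both null ranges (log2 difference -3.50, SE 0.30, adjusted p = 0.00857). The ccl39a.10 call held whichever library was left out, and that of ccl39.2 was lost without focad null replicate 1 (adjusted p = 0.0568). With voom on the recovered reads ccl39a.10 was not called (adjusted p = 0.0719). The chemokine and interleukin list holds neither, and none of its 39 genes tested was called. Of these, 15 did not overlap (38.5%, against 24.6% over all genes), 10 of them higher in focad null. The list median was -0.08, and 0.24 without pdia6 null replicate 1. Other chemokines of higher level in focad null, not called, were ccl36.1 (log2 difference 3.103, adjusted p = 0.0993) and ccl35.1 (1.65, adjusted p = 0.0872).

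Sat2a.2, odc1 and ftcdnl1 were called lower in focad null, and in each the pdia6 null group was the one outside the wild-type range. Sat2a.2 (ENSDARG00000036430), named for a family of acetyltransferases that modify polyamines or related amines, stood at 0, 0 and 0.0401 FPKM in focad null, against 110, 65.0 and 83.5 FPKM in pdia6 null and no read in wild type. It was high in pdia6 null alone (log2 difference -6.39, SE 0.24, adjusted p = 0.000222), whichever library was left out. Odc1, ornithine decarboxylase, the first enzyme of polyamine synthesis, stood at 1.401, 1.21 and 1.93 FPKM in focad null, against 19.6, 13.9 and 7.39 FPKM in pdia6 null and 5.54, 0.327 and 2.596 FPKM in wild type (log2 difference -2.46, SE 0.35, adjusted p = 0.0399). Ftcdnl1, named for its likeness to a folate-dependent enzyme of histidine breakdown, stood at 11.9, 7.24 and 8.46 FPKM in focad null, against 66.8, 56.0 and 51.3 FPKM in pdia6 null and 8.78, 12.5 and 8.34 FPKM in wild type. Pdia6 null lay above both other groups in every library (log2 difference -2.55, SE 0.26, adjusted p = 0.0169). Of 18 polyamine genes tested, sat2a.2 and odc1 were the 2 called, both lower in focad null, against 0.974% called over all genes. Of the 18, 5 did not overlap (27.8%, against 24.6% over all genes), 2 higher and 3 lower in focad null. By sign, 11 of the 18 lay above 0, and the list median was 0.17, or 0.05 without focad null replicate 1. The odc1 call was lost without any 1 of the focad null libraries or of pdia6 null replicates 1 and 2 (adjusted p 0.0512 to 0.181), and that of ftcdnl1 without focad null replicate 1 or any 1 pdia6 null library (0.0521 to 0.0692).

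Igflr1 and cbln11 were also called lower in focad null. Igflr1 (ENSDARG00000091650), a receptor for insulin-growth-factor-like ligands in mammals, stood at 0.0827, 0.0961 and 0.0298 FPKM in focad null, against 39.62, 39.4 and 37.4 FPKM in pdia6 null and 27.17, 32.9 and 12.1 FPKM in wild type. It was close to absent in focad null only, and pdia6 null exceeded wild type (log2 difference -5.22, SE 0.17, adjusted p = 0.000203), whichever library was left out. Cbln11, a second cerebellin, stood at 14.2, 1.44 and 3.73 FPKM in focad null, against 271, 146 and 488 FPKM in pdia6 null and 483, 83.4 and 385 FPKM in wild type (log2 difference -5.59, SE 0.75, adjusted p = 0.0337). Cbln5 and cbln11 thus differed in opposite directions, cbln5 with pdia6 null below wild type and cbln11 with focad null below wild type. They were the 2 called among 11 cerebellin genes tested (18.2%, against 0.974% over all genes). The list was chosen with earlier results of these data known, so that share is a description and not a test. The list median was 0.43, or 0.17 without focad null replicate 1 and 0.66 without replicate 2. The cbln11 call was lost without focad null replicate 3 or any 1 pdia6 null library (adjusted p 0.0514 to 0.121).

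The acute phase list, with 30 genes tested, had a median of -0.22, or -0.03 without pdia6 null replicate 3. In it 1 gene was called (3.33%, against 0.974% over all genes). Crp2, a C-reactive protein relative, stood at 0.0735, 0.205 and 0.0397 FPKM in focad null, against 6.73, 8.94 and 15.7 FPKM in pdia6 null and 5.197, 27.21 and 2.0965 FPKM in wild type. All focad null libraries lay below wild type (log2 difference -3.30, SE 0.31, adjusted p = 0.0129). Itln1 (ENSDARG00000095082), an intelectin that binds microbial sugars and with a symbol shared by 2 gene IDs, stood at 2.23, 0.748 and 1.04 FPKM in focad null, against 17.7, 25.6 and 31.9 FPKM in pdia6 null and 1.16, 2.34 and 0.424 FPKM in wild type. There pdia6 null alone was outside the wild-type range (log2 difference -3.49, SE 0.33, adjusted p = 0.0129). The crp2 call was lost without focad null replicate 1 or pdia6 null replicate 2 (adjusted p 0.0542 to 0.0806), and that of itln1 without pdia6 null replicate 2 (0.0604).

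Cytochrome P450 genes were called in both directions, 2 higher and 2 lower in focad null among 58 tested (6.9%, against 0.974% over all genes). Cyp2x10.2 stood at 3.08, 9.39 and 4.13 FPKM in focad null, against no read in pdia6 null and 1.02, 0.0802 and 2.02 FPKM in wild type. Its level was at least 348-fold higher in focad null against the floor (adjusted p = 0.0337). Cyp2x7 stood at 3.31, 1.64 and 1.02 FPKM in focad null, against 31.4, 17.6 and 25.6 FPKM in pdia6 null and 33.4, 17.7 and 18.7 FPKM in wild type (log2 difference -3.15, adjusted p = 0.0240). Cyp46a1.2, of a family of cholesterol hydroxylases, stood at 2.65, 1.01 and 1.78 FPKM in focad null, against 55.6, 19.1 and 21.7 FPKM in pdia6 null and 25.7, 30.1 and 32.7 FPKM in wild type (log2 difference -3.44, adjusted p = 0.0327). Cyp2x7 and cyp46a1.2 were low in focad null only, and the other called member is cyp8b1. The list median was 0.15, and -0.05 without pdia6 null replicate 1. Cyp2x10.2 was not called without focad null replicate 1 or any 1 pdia6 null library (adjusted p 0.0889 to 0.130), cyp2x7 without any 1 pdia6 null library (0.0578 to 0.0944), and cyp46a1.2 without any 1 library but focad null replicate 3 (0.0564 to 0.121).

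The remaining named genes were called in the same way. Tac4, a tachykinin precursor (log2 difference 4.103, adjusted p = 0.0337), and htatip2 (3.15, adjusted p = 0.0240) were higher in focad null, as was ciarta, a repressor of the circadian clock (1.80, adjusted p = 0.0337). P4ha3, a subunit of collagen prolyl hydroxylase (-3.93, adjusted p = 0.0473), tmem123 (-2.85, adjusted p = 0.0459), slc27a2b, a fatty acid transporter and acyl-CoA synthetase (-2.18, adjusted p = 0.0322), and chrm2, a muscarinic acetylcholine receptor whose symbol is shared by 2 gene IDs (-1.30, adjusted p = 0.0240), were lower. Chrm2 had no read in focad null and was at least 124-fold lower there against the floor. Each of these calls was lost in at least 3 of the 6 fits with a library left out, and that of p4ha3 in all 6 (adjusted p 0.0585 to 0.141). In tac4 the fits without any 1 pdia6 null library lost the call (0.115 to 0.130), and in htatip2, slc27a2b and chrm2 those without focad null replicate 1 or any 1 pdia6 null library (0.0756 to 0.0944, 0.0832 to 0.154 and 0.0633 to 0.131). The ciarta call was lost without any 1 library but focad null replicate 2 (0.0552 to 0.133), and the tmem123 call without any 1 but pdia6 null replicate 1 (0.0623 to 0.181).

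Genes passing in all 6 such fits but outside the rule for named genes, and so picked after their values were seen, were 3 with a symbol. Chsy3, a chondroitin sulfate synthase, stood at 33.95, 23.7 and 28.7 FPKM in focad null, against 3.15, 3.22 and 2.95 FPKM in pdia6 null and 5.25, 7.80 and 9.48 FPKM in wild type, with wild type between the nulls (log2 difference 2.84, SE 0.21, adjusted p = 0.00396). Dnajc16, an ER-resident J-domain protein in mammals with a symbol shared by 2 gene IDs here, stood at 6.99, 6.90 and 5.21 FPKM in focad null, against 0.0828, 0.0879 and 0.123 FPKM in pdia6 null and 6.42, 10.6 and 5.41 FPKM in wild type. It was close to absent in pdia6 null only (log2 difference 2.74, SE 0.19, adjusted p = 0.00260). The other dnajc16 ID stood at 3.54, 4.84 and 3.41 FPKM in focad null, against 1.91, 2.01 and 2.28 FPKM in pdia6 null, and was not called (adjusted p = 0.202). Msrab, a methionine sulfoxide reductase, followed the same pattern, at 4.82, 4.91 and 5.73 FPKM in focad null, 0, 0.232 and 0.156 FPKM in pdia6 null and 3.90, 4.398 and 5.60 FPKM in wild type (log2 difference 2.45, adjusted p = 0.00396). With voom msrab was not called (adjusted p = 0.104).

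Wild type was used to ask which null group lay away from it. Of the 130 called genes, 34 (26.2%) had all 3 focad null libraries outside the wild-type range and not all 3 pdia6 null libraries, and 55 (42.3%) had the reverse. In 22 genes (16.9%) the nulls lay outside on opposite sides, in 4 on the same side, and in 15 neither group lay wholly outside. Over all genes tested the shares were 13.2% for focad null only, 13.9% for pdia6 null only and 1.04% for opposite sides. Among the 63 genes higher in focad null, focad null only and pdia6 null only each accounted for 23. Among the 67 lower genes, focad null only accounted for 11 and pdia6 null only for 32. Both nulls are set against the same 3 wild-type libraries and called genes had to differ between the nulls, so these shares are a description without a test.

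**Figure D3:**
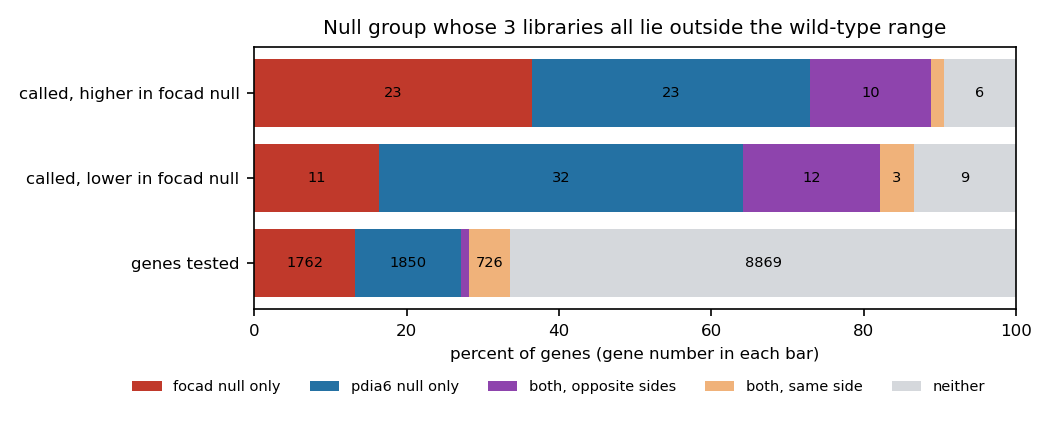
Percent of genes (horizontal axis) by the null group whose 3 libraries all lie outside the wild-type range, for called genes higher in focad null, called genes lower in focad null and all genes tested, with the number of genes in each bar. Of the 67 lower genes 32 fall to pdia6 null only, against 23 of the 63 higher genes, while 66.5% of all genes tested fall to neither.

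ER chaperones and folding factors had no called member among 53 tested, yet 52 of the 53 were lower in focad null, with a median of -1.07. Of these, 18 (34%, against 24.6% over all genes) did not overlap between the null groups, all lower in focad null. The summed level was 2290, 2922 and 2048 FPKM in focad null, 15190, 2570 and 3623 FPKM in pdia6 null and 5928, 2423 and 2908 FPKM in wild type. The library labelled pdia6 null replicate 1 was the high one, and without it the median was -0.56. Its pdia6 RNA, at 44.3 FPKM, lay inside the wide wild-type range of 14.2 to 265 FPKM. Hsp90b1, an abundant ER chaperone picked after its values were seen, stood at 19.8, 42.2 and 20.3 FPKM in focad null, against 2837, 66.6 and 218 FPKM in pdia6 null and 810, 40.0 and 201 FPKM in wild type. The groups did not overlap, but the library labelled pdia6 null replicate 1 stood far above the others of its group, and the gene was not called (log2 difference -3.70, adjusted p = 0.271). Srprb, part of the receptor that docks ribosomes at the ER, and stt3b, a catalytic subunit of protein glycosylation, had the lowest p of the list, with log2 differences of -1.16 and -1.21 (adjusted p = 0.134 and 0.152).

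Related ER lists had medians of the same sign. Of 34 genes of ER-associated degradation and the unfolded protein response, none was called and the median was -0.31, or -0.09 without pdia6 null replicate 1. Selenos, a selenoprotein of that degradation pathway, stood at 7.49, 4.85 and 7.60 FPKM in focad null, against 70.9, 28.7 and 30.7 FPKM in pdia6 null and 28.3, 23.0 and 14.9 FPKM in wild type. Its groups lay on opposite sides of wild type, and its log2 difference of -2.44 missed the threshold (adjusted p = 0.0574). Of 26 disulfide isomerases, none was called, with a median of -0.36, or -0.22 without focad null replicate 3. Outside the ER, none of 23 genes of the SKI complex and exosome was called either, and 21 were lower in focad null. Between the null groups 6 of them did not overlap (26.1%, near the 24.6% over all genes), all lower in focad null. The median of that list was -0.26, between -0.35 and -0.22 whichever library was left out. Exosc4, an exosome core subunit, stood at 5.81, 3.31 and 6.18 FPKM in focad null, against 9.15, 19.5 and 15.2 FPKM in pdia6 null and 8.10, 9.71 and 7.28 FPKM in wild type (log2 difference -1.33, adjusted p = 0.164).

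**Figure D4:**
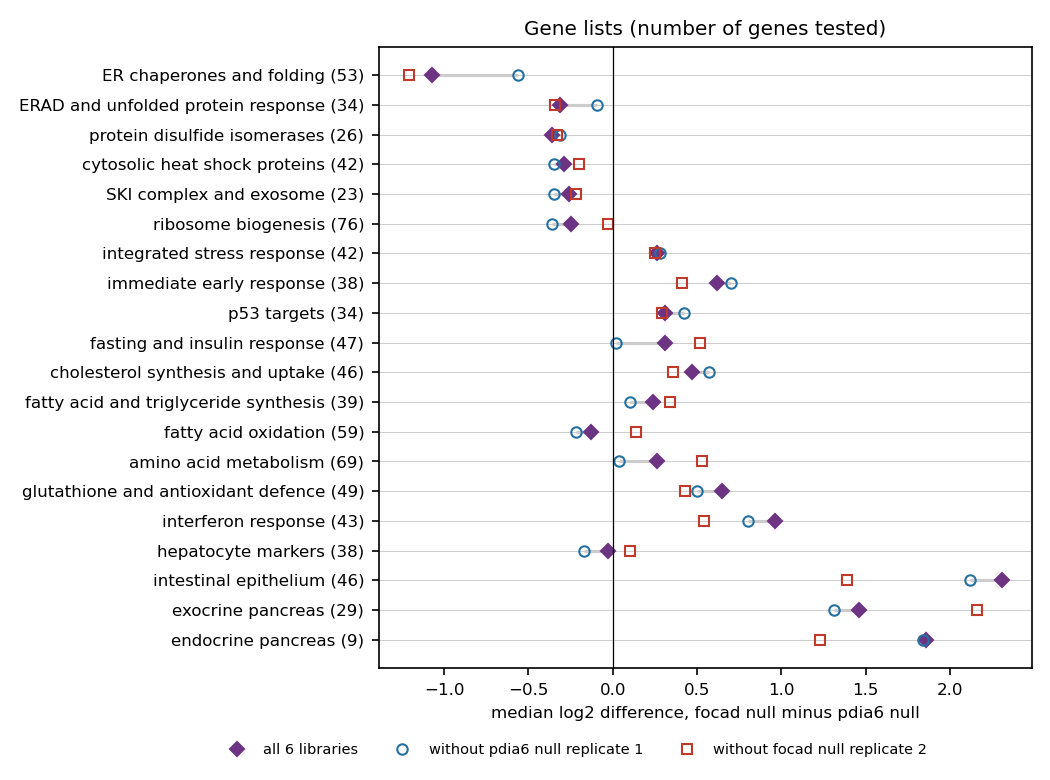
Median log2 difference, focad null minus pdia6 null, of 20 gene lists with the number of genes tested (horizontal axis, log2 scale), with all 6 libraries (purple diamonds), without pdia6 null replicate 1 (blue circles) and without focad null replicate 2 (red squares). The ER chaperone median of -1.07 becomes -0.56 without pdia6 null replicate 1, and the intestinal median of 2.31 becomes 1.39 without focad null replicate 2.

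Other metabolic lists had few or no calls. Glutathione and antioxidant genes had a median of 0.65, or 0.43 without focad null replicate 2, with none called. Of their 49 members tested, 22 (44.9%, against 24.6% over all genes) did not overlap, 18 of them higher in focad null. Mgst1, a microsomal glutathione transferase, stood at 4.53, 3.57 and 2.67 FPKM in focad null, against 0.433, 0.626 and 1.15 FPKM in pdia6 null and 1.16, 0.880 and 0.664 FPKM in wild type (adjusted p = 0.0698). Cholesterol synthesis and uptake genes had a median of 0.47 over 46 tested, with 1 called (2.17%, against 0.974% over all genes). The called gene was cyp8b1, which belongs to bile acid synthesis. Fatty acid oxidation genes had a median of -0.13 over 59 tested, with slc27a2b the 1 called (1.69%, against 0.974% over all genes). Their median was 0.14 without focad null replicate 2. Ribosomal protein genes had a median of 0.21 over 79 tested, with none called. It was -0.13 without focad null replicate 2 and -0.00 without pdia6 null replicate 1, so the positive direction rests on these 2 libraries.

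Marker lists of the intestine and pancreas had positive medians, and so did those of several other tissues. The median was 1.29 for gill and skin epithelium (10 tested), 1.06 for muscle (9) and 0.99 for kidney tubule (11). Their non-overlapping shares were 80%, 55.6% and 63.6%, against 24.6% over all genes. Of the IDs matched, 10 of 28, 9 of 32 and 11 of 22 reached the filter on level. A marker near absence in 1 null group passes that filter only through the other. The medians and shares of these lists, and of the intestinal and pancreas lists, are therefore descriptions and not tests. Non-overlapping gill and skin markers were 6 higher and 2 lower in focad null. Those of muscle were 5 higher and 0 lower, and those of kidney tubule 6 higher and 1 lower. Over genes averaging at least 5 FPKM the muscle median was -0.57, and testis markers had a median of -0.08 (4 tested). Intestinal epithelium genes had a median of 2.31 over 46 tested, and none was called. Non-overlapping members were 29 higher and 1 lower in focad null (65.2%, against 24.6% over all genes). The intestinal list summed to 14920, 40290 and 8845 FPKM in focad null, 9399, 13020 and 9770 FPKM in pdia6 null and 9788, 9936 and 7133 FPKM in wild type. Fabp2, a fatty acid binding protein that defines gut absorptive cells and was picked after its values were seen, stood at 237, 3640 and 71.1 FPKM in focad null, against 0.2175, 3.45 and 2.34 FPKM in pdia6 null and 2.597, 6.05 and 4.72 FPKM in wild type. Replicates 1 and 2 carried most of the excess, and the list median was 1.39 without replicate 2 and 3.49 without replicate 3. Exocrine pancreas genes had a median of 1.46 over 29 tested, or 0.97 without focad null replicate 1, and summed to 6882, 1496 and 3202 FPKM in focad null, 799, 1619 and 960 FPKM in pdia6 null and 662, 1954 and 935 FPKM in wild type. Endocrine pancreas genes summed to 263, 235 and 12.8 FPKM in focad null, 10.3, 14.2 and 8.53 FPKM in pdia6 null and 5.01, 6.52 and 1.78 FPKM in wild type. The part of these markers in the differences described above was not tested. Of the 31 endocrine pancreas markers matched, 1 was at 0 in all 9 libraries, and no member of the intestinal or exocrine lists was at 0 throughout.

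**Figure D5:**
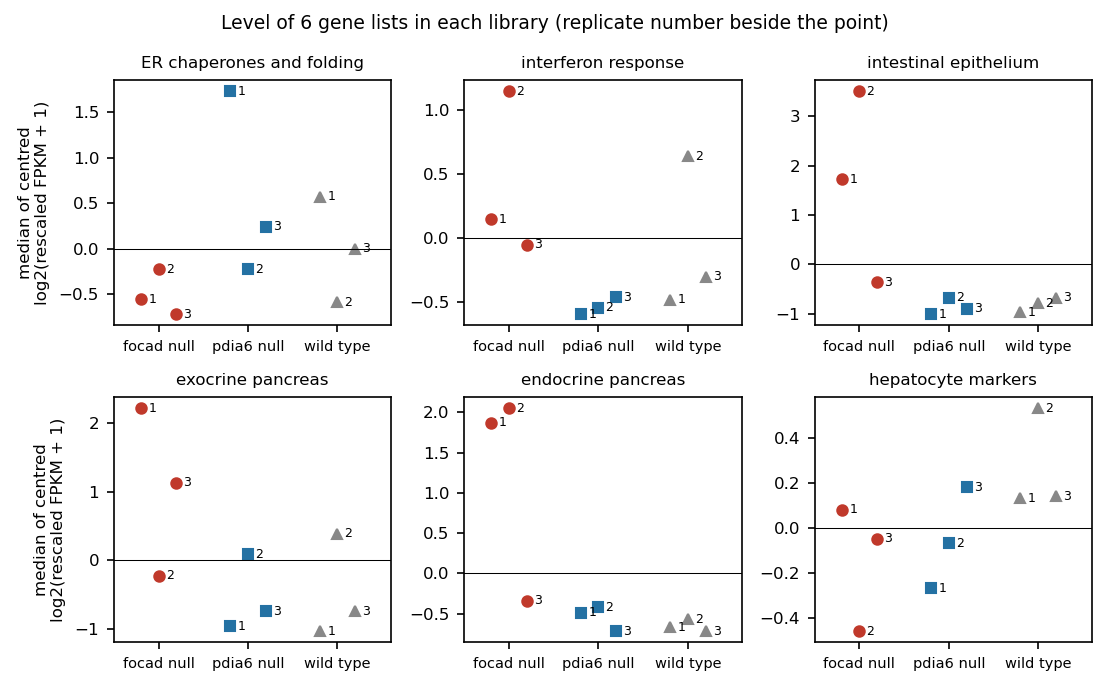
Median of centred log2(rescaled FPKM + 1) over the members of 6 gene lists (vertical axes, each centred per gene over the 9 libraries) in each library, with replicate numbers beside the points. ER chaperones peak in pdia6 null replicate 1, intestinal genes in focad null replicate 2 and exocrine pancreas genes in focad null replicate 1. Interferon genes are low in all 3 pdia6 null libraries (-0.59 to -0.46) and also in wild-type replicates 1 (-0.48) and 3 (-0.30).

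Presence and absence were counted directly. A total of 11 genes had at least 1 FPKM in each focad null library and no value above 0 in pdia6 null, and 8 of these were called, mia and cyp2x10.2 among them. The reverse held for 8 genes, of which 6 were called, including ccl39a.10 and chrm2. These genes were picked by the same difference that the calls rest on, so both counts are a description and not a test. In the RefSeq gene order of GRCz12tu, a build other than that of the files, 9399 tested genes were placed, 65 of them called. Of the called genes placed, 12 had another called gene within 10 genes on the same chromosome. The share over all genes placed was not computed, so this count is a description and not a sign of clustering. Besides the ifi27 run, the 12 included cyp2x10.2 beside si:dkey-286h2.3 on chromosome 7, both higher in focad null. Lower were cbln11 near zgc:154164 and pfdn2 on chromosome 7, and rpz5 near tmem176l.3a on chromosome 16. On chromosome 15, txndc17 and itgae.1 went in opposite directions (log2 differences 1.48 and -1.33). None of the 20 genes tested nearest to focad was called, nor of the 20 nearest to pdia6, with medians of 0.04 and 0.22, and 7 and 4 of them did not overlap between the null groups, around the 24.6% over all genes.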

How the data were processed

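Each library was made from 1 µg of total RNA of frozen liver, with an integrity number above 6.5, per the labels' protocols. Named in the submitters' processing notes are danRer11, TopHat2 2.0.12, Bowtie2 2.2.3 and HTSeq 0.6.1, without roles. For annotation and strand setting, nothing is given in the sources used here. The deposited values are FPKM for every gene and library. The authors' tables of each null against wild type were not used.

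Median-ratio rescaling of the columns used 7660 genes that reached 1 FPKM in each of the 9 libraries. The test took genes averaging 0.5 FPKM or more over the 6 libraries compared, on log2(FPKM + 1), which understates changes of low genes, in limma 3.58.1 under R 4.3.3 (lmFit, then trended and robust eBayes, two-sided, Benjamini-Hochberg, threshold 0.05). Python 3.11.15, pandas 2.3.3, numpy 2.4.6 and matplotlib 3.10.9 were used. FPKM values were read as multiples of the value of 1 read, which gave the reads per gene. Within 0.05, 100% of 164586 values below 1000 reads came out whole, and 93.9% of all 191707 values above 0. Each gene's multiple was chosen to come out whole within that same 0.05, so these shares are no check of the reads. For a gene with few values above 0 the reads can be too few. Floors of reads account for counting error only. Replicate pairs all differed beyond sampling noise (chi-square per degree of freedom 139 to 725).

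Symbols came from the name table for 29201 IDs. Of 2469 list symbols in 60 lists, 1877 matched exactly and 342 after dropping a final copy letter or number. Named genes were focad and pdia6, the 12 largest called increases and decreases without overlap, leaving out placeholder names, up to 3 called members of each list, and genes absent from 1 null group. Where a list had no called member, up to 2 members with the lowest p are given as values. The members and lists were chosen with earlier results of these data known, so the shares of list members called are descriptions and not tests. The test was also run on simulated data, drawn gene by gene without shifts shared across a library. That run cannot show how the test behaves where single libraries stand apart, as they do here. Alternatives were other pseudocounts, filters and scalings, all 9 libraries in the fit, a replicate block, a plain fit and voom on the recovered reads. Each library, or focad null replicate 2 and pdia6 null replicate 1 together, was also left out.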

Additional observations from a re-analysis of the deposited data

How the results depend on the processing

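The count of 130 called genes was within 1.5 times under a pseudocount of 0.1 (164), FPKM as deposited (138), columns scaled to the same sum (129), a plain fit (134) and all 9 libraries in the fit (184). It was 42 with a pseudocount of 5, 32 with no filter on low values (25774 genes tested), 46 with a mean of at least 5 FPKM (5466 genes tested), 20 with voom on recovered reads and 53 without focad null replicate 2 and pdia6 null replicate 1. Leaving out 1 library gave 27 to 215. The causes were not tested. No gene named as called and no transcript difference turned its direction under any of these settings. Of the 36 named called genes, 10 passed with voom, 15 with no filter and 18 without focad null replicate 2 and pdia6 null replicate 1.

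A paired fit with the replicate number as a replicate block called 11 genes. Deviations of same-numbered libraries correlated at -0.193, 0.028 and 0.112, and those of differently numbered libraries at -0.188 to 0.22. With 3 libraries per group these values cannot decide whether the numbers pair the libraries. Scaling moved the median difference over all genes by less than 0.1. At 46.1 to 54.5 M reads per library, depth limits mainly genes near the floor of 3 reads over a group.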
